A study of Mus musculus with 6 samples.

Results

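Megakaryocyte and platelet transcripts were followed in bone marrow cells of mice deficient in erythropoietin. The set holds 32 genes listed for their roles in platelets, beside 14861 genes tested on the arrays. Of the 32, 31 had a probe whose accession matched the gene, 29 were bright enough to test, F2rl2 and P2ry12 were too dim, and no probe was matched to Tubb1. Each gene is represented by its brightest probe.

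Megakaryocytes are the giant marrow cells that shed platelets. Their program is switched on by transcription factors of the GATA and ETS families, with thrombopoietin as the main hormonal drive. They share a common progenitor with the red cell lineage, which answers to erythropoietin. Platelets carry adhesion receptors for the vessel wall, receptors for thrombin, nucleotides and thromboxane, and granules filled with chemokines and clotting proteins.

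All 6 samples had the ISAM genotype (Epo-/-::3.3K-Epo3'-Tg458), in which the endogenous Epo gene is lost and a transgene leaves the adult short of erythropoietin and anemic, so no group had a normal hormone supply. The mice were males of mixed strain, 10 weeks old, and cells were taken from femurs, 1 array per sample. Recombinant human erythropoietin (rHuEPO) had been given into the peritoneal cavity at 3000 U/kg in 3 samples, 6 h before collection. The control arm joined 1 untreated sample with 2 that had received phosphate-buffered saline (PBS) 6 h earlier. Replicates carry numbers but no animal names, so a p-value here reflects only how these samples spread, which may be technical. Slide 1 held the untreated array and rHuEPO array 1, slide 2 the other 4 arrays, and slide and scan fell together. The 75th percentile of signal ran from 220.7 to 264 over the arrays, and 46.2% to 50.5% of gene spots were well above background. Precision is limited by having 6 arrays.

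The proximal promoters of 4 lineage genes that varied together over the arrays are shown first, with that of F2r, the 1 member whose arms did not overlap. Each is the 250 bases before the most upstream RefSeq start (GRCm38.p6), 5′ to 3′ on the gene's strand. Capitals mark the letters GATAA, the core read by GATA factors, or GGAAG, a core read by ETS factors, on either strand, where CTTCC and TTATC are the reverse complements.
Pf4, chr5:90772185-90772434, plus strand: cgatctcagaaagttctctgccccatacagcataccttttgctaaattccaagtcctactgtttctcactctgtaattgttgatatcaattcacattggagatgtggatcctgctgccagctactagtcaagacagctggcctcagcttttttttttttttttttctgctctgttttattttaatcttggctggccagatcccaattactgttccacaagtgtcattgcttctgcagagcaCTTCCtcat
Itga2b, chr11:102469884-102470133, minus strand: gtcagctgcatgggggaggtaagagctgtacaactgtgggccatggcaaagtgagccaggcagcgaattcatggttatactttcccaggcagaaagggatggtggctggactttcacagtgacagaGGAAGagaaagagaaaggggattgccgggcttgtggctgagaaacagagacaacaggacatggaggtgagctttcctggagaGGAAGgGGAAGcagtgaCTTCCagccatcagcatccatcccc
Gp1ba, chr11:70638872-70639121, plus strand: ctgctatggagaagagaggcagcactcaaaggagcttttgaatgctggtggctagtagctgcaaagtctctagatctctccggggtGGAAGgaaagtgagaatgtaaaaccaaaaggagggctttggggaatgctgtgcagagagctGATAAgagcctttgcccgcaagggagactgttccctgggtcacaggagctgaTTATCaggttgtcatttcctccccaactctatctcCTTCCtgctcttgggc
Gp9, chr6:87777820-87778069, plus strand: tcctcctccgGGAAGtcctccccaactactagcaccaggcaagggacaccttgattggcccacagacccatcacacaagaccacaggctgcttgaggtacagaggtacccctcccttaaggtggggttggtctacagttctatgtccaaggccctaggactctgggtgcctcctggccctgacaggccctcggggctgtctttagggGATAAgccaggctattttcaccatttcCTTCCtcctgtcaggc
F2r, chr13:95618467-95618716, minus strand: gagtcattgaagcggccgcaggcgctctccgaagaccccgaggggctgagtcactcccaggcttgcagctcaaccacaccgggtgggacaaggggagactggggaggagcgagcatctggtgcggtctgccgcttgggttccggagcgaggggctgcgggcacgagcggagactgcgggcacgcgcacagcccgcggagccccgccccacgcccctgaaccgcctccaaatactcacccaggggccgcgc
In the Gp9 window a GATAA began 43 bases before the start and a CTTCC 16 bases before it. The Gp1ba window held GATA letters beginning 103 and 51 bases before the start and a CTTCC at 16. Itga2b, the gene of the fibrinogen receptor's alpha chain, had 4 ETS matches and no GATAA in its window, and Pf4 had 1 ETS match, 9 bases before the start. No match was found in the F2r window, which says only that these letters are absent from those bases. Of the 26 members with a promoter in the table, 9 held GATAA, 22 held GGAAG and 6 held both. Over all 32851 promoter windows of the same length the shares were 22.6%, 64.1% and 13.2%. Those windows take in every listed start, while each member gave only its most upstream one. The matches describe sequence and are not evidence of binding.

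Levels are given as log2 processed signal relative to the 75th percentile of the same array, differences are rHuEPO minus control on that log2 scale, and the standard error (SE) comes from limma. Every tested member was well above background on every array, which does not by itself show the cells that carried the transcripts. Pf4, the platelet chemokine platelet factor, stood at 5.65 on the untreated array, 6.19 and 5.74 on the PBS arrays, and 4.66, 6.60 and 6.07 on rHuEPO arrays 1, 2 and 3. Ppbp, the precursor of another platelet chemokine, stood at 5.81 untreated, 6.32 and 6.06 in PBS, and 4.31, 6.84 and 5.90 after rHuEPO. In both genes the rHuEPO arm held the lowest and the highest array, with the 3 controls between them. The mean level of Pf4 was 5.86 ± 0.29 (SD, n = 3) in controls and 5.77 ± 1.00 (SD, n = 3) after rHuEPO.

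**Figure D1:**
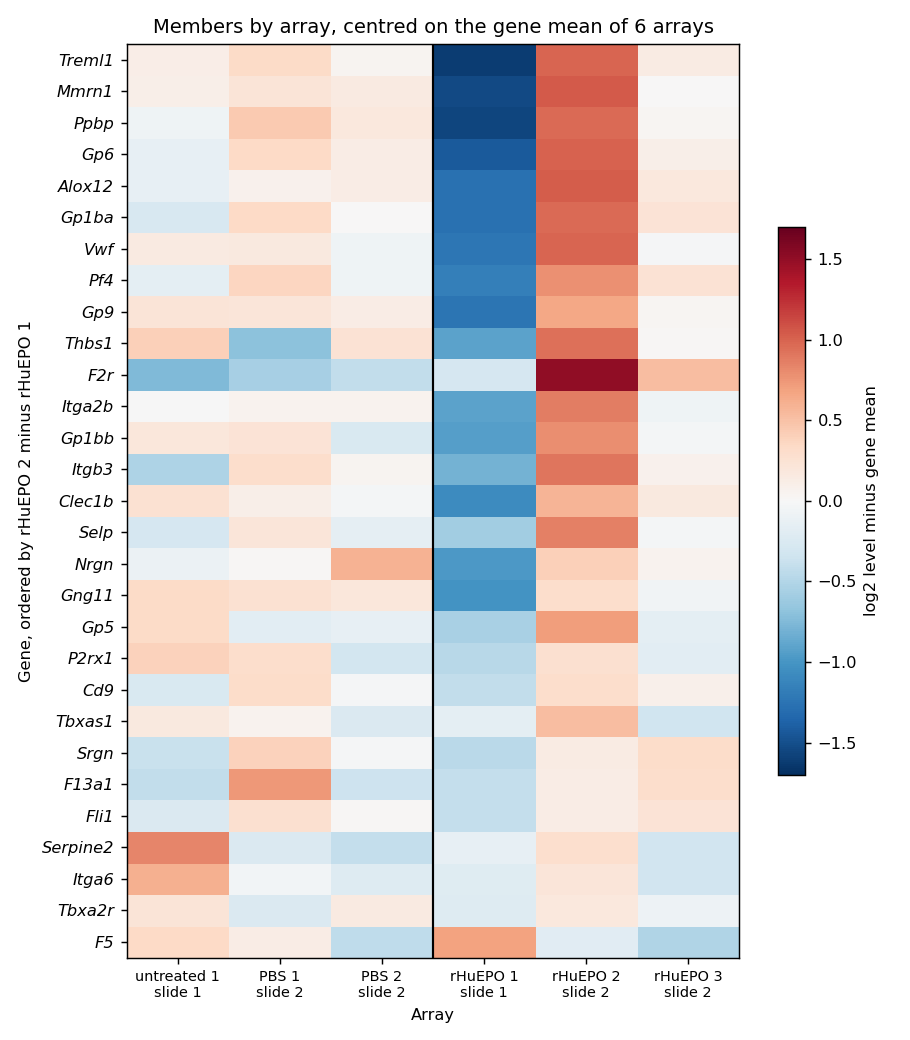
Log2 level of each of the 29 tested members (rows) on each of the 6 arrays (columns), minus the gene's mean over the arrays. Blue is below and red above the mean, the line parts control from rHuEPO arrays, and genes are ordered by rHuEPO 2 minus rHuEPO 1. The column of rHuEPO 1 is blue and that of rHuEPO 2 red for most genes in the upper part, while the lower genes, F13a1, Srgn and F5 among them, lack this order.

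This order was shared by much of the set. Of the 29 tested members 22 were lowest on rHuEPO array 1, 18 were highest on rHuEPO array 2, and 16 were both, which is 55.2% of them. Over all genes tested 3.1% were lowest on the first and highest on the second of these arrays, 22.1% lowest on rHuEPO 1 and 8.18% highest on rHuEPO 2. Of the 29, 19 were at least 1 log2 unit higher on rHuEPO 2 than on rHuEPO 1, against 5.47% of all genes, and 0 were that much lower, against 3.12%. The pattern was noticed in these data and is given as a description. As rHuEPO 1 lay on slide 1 and rHuEPO 2 on slide 2, sample and slide cannot be told apart in this contrast. With normexp on median spot signals in place of the processed signal, 11 members were lowest on rHuEPO 1 and 10 had both extremes (1.08% of all genes), while 19 were still at least 1 log2 unit apart (1.54% of all genes). In whole marrow RNA, fewer cells of a type and less of a transcript per cell cannot be told apart.

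The spread lay within the treated arm rather than between the arms. Each arm crossed the slides, with the untreated array and rHuEPO 1 on slide 1 and the others on slide 2. The median range over the 3 rHuEPO arrays was 1.64 log2 units for the members, against 0.47 for all genes, and over the 3 controls it was 0.51, against 0.55 for all genes. In 24 of 29 members the rHuEPO range was the wider one, a relation that held in 41.7% of all genes. In 18 members the rHuEPO arrays reached both below and above all 3 controls, against 14.1% of all genes. Under normexp the members' median control range was 1.27, beside 1.31 in the rHuEPO arm. That setting changed the input signal and the correction together, and their parts were not separated. The rHuEPO range did not shrink to the control range with quantile normalization (1.54 against 0.46) or median scaling (1.78 against 0.62).

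Granule and secreted proteins gave the widest examples. Treml1, a receptor stored in alpha granule membranes, stood at 4.20 untreated, 4.41 and 4.14 in PBS, and 2.47, 5.07 and 4.23 after rHuEPO, a 6.1-fold span between rHuEPO arrays 1 and 2. Mmrn1, multimerin, the carrier of factor V in granules, stood at 0.22, 0.34 and 0.27 on the controls and at -1.41, 1.16 and 0.13 after rHuEPO. Its controls lay within 0.12 of each other and its treated arrays within 2.57. Vwf, von Willebrand factor, which tethers platelets to collagen, stood at 4.49, 4.50 and 4.27 on the controls and at 3.12, 5.33 and 4.32 after rHuEPO. A second Vwf probe had the same extremes, with rHuEPO 2 above rHuEPO 1 by 1.96 against 2.21 for the first.

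Selp and Thbs1 are granule genes that other marrow cells also express. Selp, the adhesion molecule P-selectin, stood at -0.18 untreated, 0.30 and -0.05 in PBS, and -0.49, 0.96 and 0.07 after rHuEPO. A dimmer Selp probe did not share this order, with its lowest value, -3.12, on PBS array 2 and its highest, -1.25, on the untreated array. Thbs1, thrombospondin, stood at -0.03, -1.13 and -0.19 on the controls and -1.35, 0.50 and -0.42 after rHuEPO, so that PBS array 1 was nearly as low as rHuEPO array 1. Its other probes placed rHuEPO 2 above rHuEPO 1 by 0.73 and 1.08, but neither had both extremes. The first of them was highest on the untreated array, at -1.02, and the other lowest on PBS array 1, at -2.73. Thbs1 and Selp are counted among the 16 by their brightest probe.

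The remaining 4 secreted or granule genes departed from the pattern. F13a1, the clotting factor XIII subunit that monocytes also make, stood at 5.48 untreated, 6.63 and 5.55 in PBS, and 5.50, 6.03 and 6.21 after rHuEPO, with PBS array 1 highest. Srgn, serglycin, the granule proteoglycan of many myeloid cells, stood at 7.04, 7.82 and 7.39 on the controls and 6.97, 7.57 and 7.74 after rHuEPO. Its arms overlapped over nearly their whole width. F5, coagulation factor V, ran the other way between those arrays, at 0.22 on rHuEPO 1 and -0.66 on rHuEPO 2, with -0.97 on rHuEPO 3 and -0.12, -0.34 and -0.89 on the controls. Serpine2, protease nexin, was highest on the untreated array at -1.19 and lay between -2.43 and -1.74 on the other 5.

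Adhesion receptors varied together across the arrays. Gp1ba, Gp1bb, Gp5 and Gp9 encode the von Willebrand factor receptor complex, and all 4 were lowest on rHuEPO 1 and highest on rHuEPO 2. Gp1ba, the ligand-binding chain, stood at 1.24 untreated, 1.85 and 1.52 in PBS, and 0.25, 2.48 and 1.75 after rHuEPO. Gp9 stood at 3.82, 3.81 and 3.72 on the controls and 2.36, 4.26 and 3.63 after rHuEPO, so 2 of the 3 treated arrays lay below every control. Gp5 spanned less, from 0.97 on rHuEPO 1 to 2.22 on rHuEPO 2, with controls between 1.34 and 1.84. Gp1bb ran from 0.35 to 2.08 over the same arrays, with controls between 1.03 and 1.52.

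The fibrinogen and collagen receptors showed the same order. Itga2b stood at 1.90, 1.96 and 1.97 on the controls, an SD of 0.04, and at 1.00, 2.78 and 1.84 after rHuEPO, an SD of 0.89. Itgb3, the beta chain of the same integrin, stood at 4.59, 5.42 and 5.17 on the controls and 4.31, 6.03 and 5.19 after rHuEPO. Gp6, the collagen receptor glycoprotein VI, stood at 1.09, 1.57 and 1.35 on the controls and -0.20, 2.23 and 1.32 after rHuEPO, a 5.39-fold span. Clec1b, the receptor for podoplanin, ran from 2.48 on rHuEPO 1 to 4.12 on rHuEPO 2. Its controls lay between 3.50 and 3.80.

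Cd9 and Itga6, of the 10 adhesion genes, did not follow the other 8. Cd9, a tetraspanin carried by several marrow lineages, stood at 4.95, 5.52 and 5.19 on the controls and 4.79, 5.50 and 5.30 after rHuEPO. Itga6, a laminin receptor chain also found on progenitors and endothelium, stood at 1.79, 1.13 and 0.96 on the controls and 0.97, 1.38 and 0.85 after rHuEPO, with the untreated array highest.

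**Figure D2:**
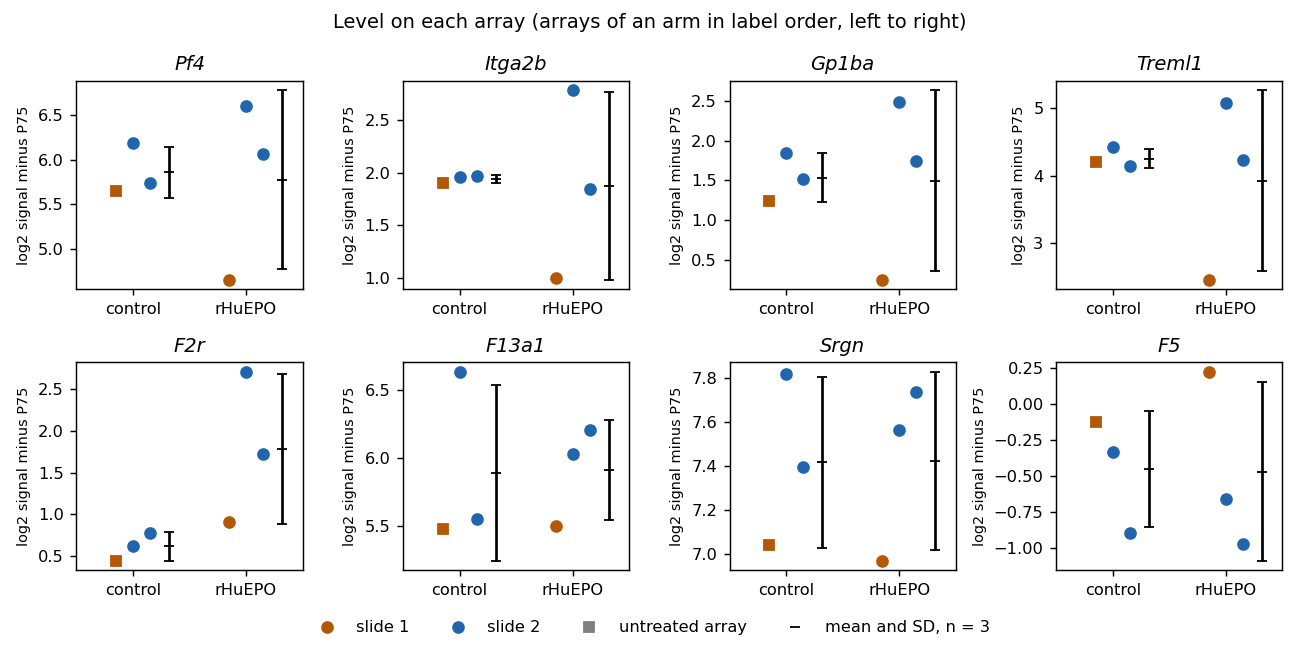
Level of 8 members on each array, as log2 signal minus the array's 75th percentile (P75), with the control arm left and the rHuEPO arm right in each panel. Points are arrays, coloured by slide, squares mark the untreated array, and bars give the mean and SD of 3 arrays; vertical axes differ between panels and do not start at 0. In Pf4, Itga2b, Gp1ba and Treml1 the rHuEPO points enclose the controls, and in F2r all 3 rHuEPO points lie above them.

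F2r, the thrombin receptor, was the 1 member whose arms did not overlap. It stood at 0.44 untreated, 0.63 and 0.78 in PBS, and 0.91, 2.70 and 1.73 after rHuEPO. The lowest treated array was only slightly above the highest control. The rHuEPO mean was higher by 1.16 ± 0.42 (SE, n = 3 and 3), but the test was not passed (limma adjusted p = 0.895, or 0.321 when slide was a block). It was 0.47 within slide 1 and 1.51 within slide 2, and 0.70 without rHuEPO array 2. Among all genes 5.01% had the treated arrays wholly above the controls and 5.38% wholly below, beside 1 and 0 of the 29 members, so the members are near or under that background. The arms of F2r also did not overlap under quantile normalization, median scaling and normexp. They did not overlap in the deposited value table either, but its values nearly repeat the reported ones, so it adds no separate check. F2r ended lowest on the untreated array rather than on rHuEPO 1, but shared the high rHuEPO 2 value. Platelets of mice are known to signal through other thrombin receptors, and F2r is also made by endothelium and stroma.

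The other agonist receptors were less bright or less variable. P2rx1, an ATP-gated channel of platelets, stood at -0.38 untreated, -0.47 and -1.08 in PBS, and -1.23, -0.49 and -0.95 after rHuEPO. Tbxa2r, the thromboxane receptor, stood at 0.43, -0.05 and 0.36 on the controls and -0.02, 0.38 and 0.12 after rHuEPO, with the arms overlapping. Gng11, a G protein gamma subunit, stood at 4.54, 4.47 and 4.41 on the controls and 3.20, 4.52 and 4.16 after rHuEPO. It was lowest on rHuEPO 1 like the receptors above, but highest on the untreated array. F2rl2, a cofactor thrombin receptor, was well above background on rHuEPO array 2 alone, and P2ry12, the ADP receptor, on PBS array 1 alone, so their levels were not compared.

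Of the eicosanoid enzymes, Alox12, platelet lipoxygenase, followed the receptors and Tbxas1, thromboxane synthase, was highest on rHuEPO 2 but, on its brighter probe, lowest on rHuEPO 3. Alox12 stood at 2.67, 2.88 and 2.94 on the controls and 1.53, 3.83 and 2.99 after rHuEPO, and its second probe placed rHuEPO 2 above rHuEPO 1 by 2.02, against 2.30. Tbxas1, which macrophages also express, stood at 3.20, 3.10 and 2.79 on the controls and 2.87, 3.57 and 2.71 after rHuEPO. Its second probe did have both extremes, at 1.91 on rHuEPO 1 and 2.73 on rHuEPO 2. Nrgn, neurogranin, a calmodulin-binding protein whose transcript is carried by platelets, ran from 1.90 on rHuEPO 1 to 3.46 on PBS array 2. Fli1, an ETS factor of megakaryocytes and other blood and endothelial cells, lay between 2.53 and 3.21 on all 6 arrays. A second Fli1 probe lay between 2.46 and 2.66.

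The comparison that the study was built on asked which transcripts had answered rHuEPO by 6 h. No member passed in either direction. Across 14861 genes limma (Benjamini-Hochberg adjusted p under 0.05) called 10, or 0.0673%, as higher and 0 as lower. Of the 29 members 0 passed and 1, F2r, had an unadjusted p under 0.05, against 4.96% of all genes. With slide as a block 0 members passed, against 0.074% of all genes, and 1 had an unadjusted p under 0.05, against 11.3%. The adjusted p was at least 0.895 by limma for every tested member, and at least 0.321 with slide as a block. The median difference over the members was -0.086, beside -0.015 over all genes, and the median's sign turned with normexp (0.16), array weights (0.40) and without rHuEPO array 1 (0.27). It was -0.45 without rHuEPO array 2, so no direction can be read from it.

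Errors were wide for the members whose treated arrays lay far apart. The difference was -0.09 ± 0.47 (SE, 3 against 3 arrays) for Pf4, -0.38 ± 0.58 for Ppbp, -0.07 ± 0.41 for Itga2b, -0.33 ± 0.59 for Treml1 and -0.16 ± 0.50 for Vwf, each with a limma adjusted p of 1.00. The largest downward value was that of Gng11, -0.52 ± 0.33 (limma adjusted p = 1.00), and it was -1.35 within slide 1 and -0.10 within slide 2. Errors were smaller for the members with even arrays, such as Tbxa2r (-0.09 ± 0.21) and Fli1 (-0.03 ± 0.24). A p that misses the threshold does not show that levels were alike.

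**Figure D3:**
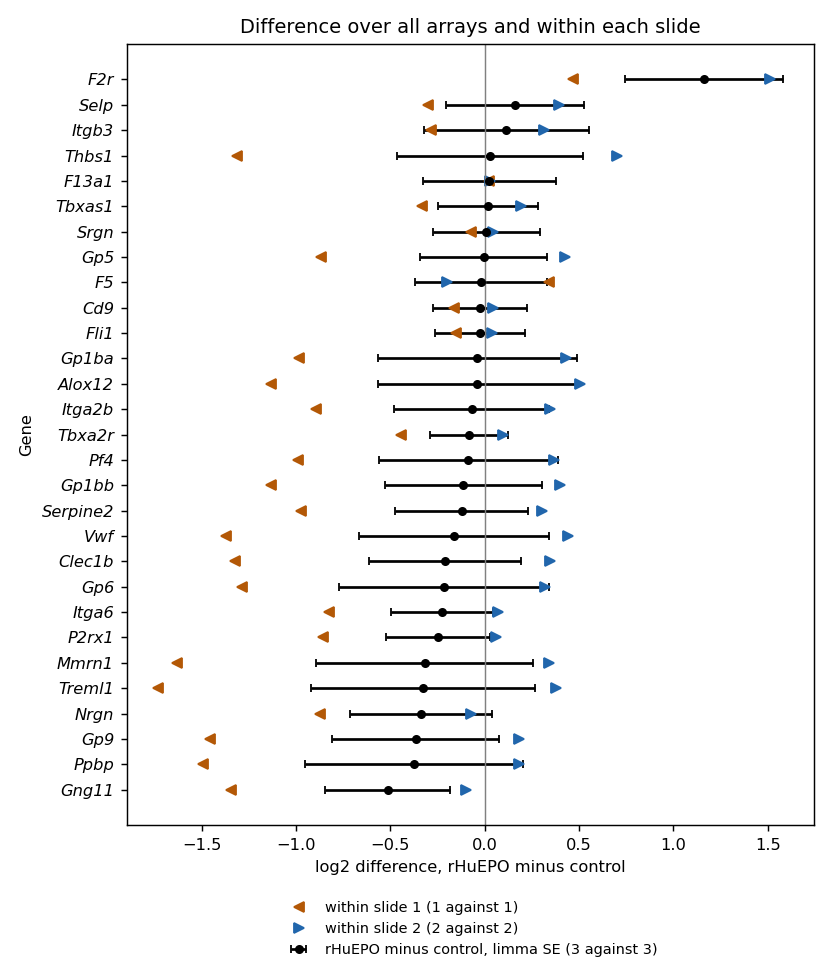
Log2 difference, rHuEPO minus control, of the 29 tested members, with the limma SE (black, 3 against 3 arrays) and the differences within slide 1 (brown, 1 against 1) and slide 2 (blue, 2 against 2). For the genes with the 2 extremes on rHuEPO 1 and 2 the slide 1 value lies below 0 and the slide 2 value above it. The slide 1 sign follows from how these genes were picked.

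The members' median difference had opposite signs within slide 1 and within slide 2. For the 16 members with both extremes, rHuEPO 1 lay below the untreated array on slide 1 by selection, by values from -1.73 to -0.28. On slide 2 the mean of rHuEPO 2 and 3 lay above the mean of the PBS arrays, by 0.18 to 0.70. Picking genes highest on rHuEPO 2 favoured that sign. The medians over the 29 members were -0.90 on slide 1 and 0.32 on slide 2, beside 0.0048 and -0.019 over all genes. The slide 1 value rests on 1 array in each arm, so it has no replicate check, and the difference between slides was not tested. Against PBS alone, in a limma fit with 3 groups, 0 of 29 members passed (0.0202% of all genes), and the smallest member adjusted p was 0.999. With that fit 0 members had an unadjusted p under 0.05, against 3.98% of all genes.

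Untreated minus PBS, the members' differences ran both ways, from -0.70 for Itgb3 to 1.16 for Serpine2, with 16 below 0 and 13 above. The untreated side rests on 1 array, so likeness of the 2 kinds of control was not shown. In the 3-group fit 0 members differed between untreated and PBS by limma at an adjusted p under 0.05 (0.0% of all genes), 1 had an unadjusted p under 0.05 (5.42% of all genes), and the smallest member adjusted p was 0.676, of Serpine2. The members' median untreated minus PBS difference was -0.078, with -0.11 over all genes. Between slides, with the treatment arm in the fit, 26 of 29 members lay lower on slide 1, with a median of -0.62 against -0.11 over all genes, and 0 passed. The slide 1 arrays were unlike for the members. Their median level, minus each gene's mean over the arrays, was 0.10 on the untreated array and -0.91 on rHuEPO 1. The low side of slide 1 thus lay on rHuEPO 1 and not on the untreated array. In the slide comparison limma called 7.15% of all genes lower and 3.42% higher on slide 1. The smallest member adjusted p was 0.0652, of Srgn, and 11 members had an unadjusted p under 0.05, a share to be read against 33.0% of all genes.

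Genes that work beside the members were examined through 4 lists. Of the list for megakaryocyte transcription and thrombopoietin signalling 20 of 23 genes were tested, of proplatelet formation and cytoskeleton 20 of 20, of granule biogenesis and secretion 21 of 21, and of platelet activation signalling 35 of 38. By limma 0 genes of any of the 4 passed in either direction, and at an unadjusted p under 0.05 there was 1 in the first, Mef2c, and 1 in the last, Adra2a, which is near the 4.96% of all genes. Their median differences were 0.052, -0.050, -0.036 and -0.0047, beside -0.015 over all genes.

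The transcription factors named from these lists did not share the members' order. In the list for megakaryocyte transcription and thrombopoietin signalling 1 of 20 tested genes had both extremes, beside 3.1% of all genes. Gata1, which drives both the megakaryocyte and the erythroid program, stood at 2.60, 1.40 and 2.32 on the controls and 3.14, 2.46 and 2.68 after rHuEPO, with rHuEPO 1 highest. Its cofactor Zfpm1 had a difference of 0.46 ± 0.25 (limma adjusted p = 1.00) and Mef2c, a MADS-box factor of megakaryocytes and B cells, of -0.47 ± 0.16 (limma adjusted p = 0.855), with all 3 treated arrays below the controls.

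Among the cytoskeletal genes Myl9, a myosin light chain abundant in platelets, stood at 5.10, 5.20 and 5.08 on the controls and 3.41, 5.51 and 4.86 after rHuEPO. Vcl and Dynll1, a focal adhesion protein and a dynein light chain, did not have that order, with differences of -0.31 ± 0.26 and 0.27 ± 0.29 (limma adjusted p = 1.00 for both). The 2 genes of this list lowest on rHuEPO 1 and highest on rHuEPO 2 were Myl9 and Tpm4. In the granule biogenesis list 1 gene had both extremes, Slc35d3, a transporter-like gene of dense granules, which ran from -2.18 to -0.87. Hps6, Hps5 and Stx11 had the smallest p there, with differences of 0.37, -0.25 and -0.28 and a limma adjusted p of 1.00 for each.

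Some of the platelet activation genes followed the members and others did not. Of 35 tested, 11 had both extremes, and 8 were at least 1 log2 unit higher on rHuEPO 2 than on rHuEPO 1, beside 3.1% and 5.47% of all genes. F11r, a junctional adhesion molecule, ran from 1.09 to 3.39, Pear1 from -0.81 to 0.59, and the ADP receptor gene P2ry1 from 1.30 to 2.43. Adra2a, the adrenaline receptor, stood at -2.97, -2.91 and -3.39 on the controls and -2.59, -1.16 and -1.76 after rHuEPO, so its arms did not overlap. Its difference was 1.25 ± 0.36 (limma adjusted p = 0.738, and 0.306 after blocking on slide). Lat and Pik3cb, adaptor and kinase genes of receptor signalling, followed by p, with 0.54 ± 0.32 and 0.30 ± 0.19 (limma adjusted p = 1.00 for both).

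**Figure D4:**
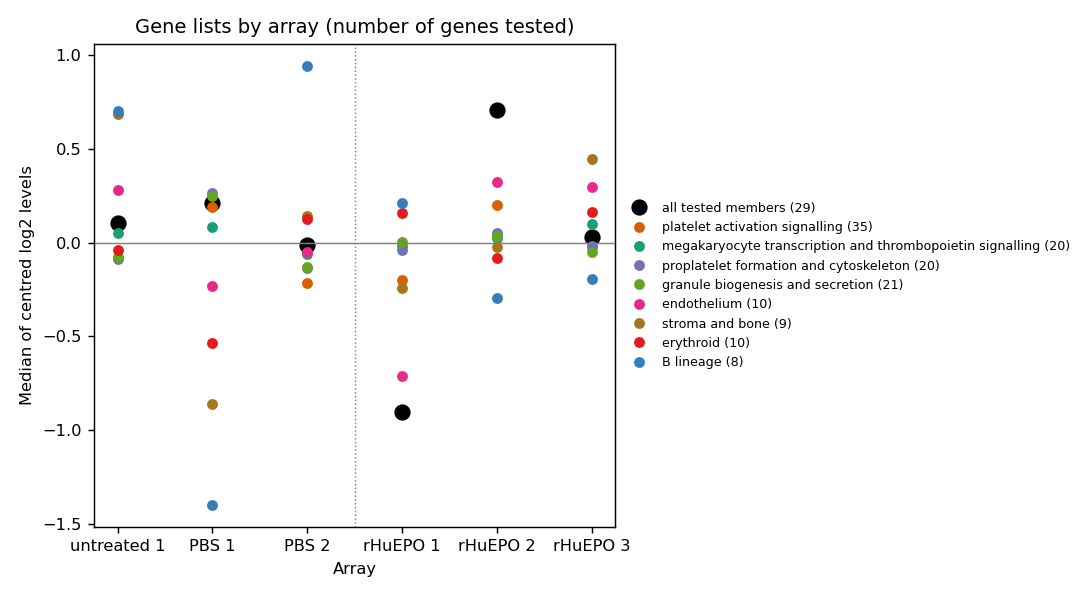
Median over the genes of a list of the log2 level minus the gene's mean over 6 arrays, for the members (large black points), the 4 related lists and 4 other cell type lists, by array. The members stand at -0.91 on rHuEPO 1 and 0.71 on rHuEPO 2, the endothelium list at -0.71 and 0.32, and B lineage and stroma genes have their lowest value on PBS 1.

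Markers of other cells were set beside this pattern, which 3.1% of all genes showed. Genes with both extremes numbered 0 of 10 in the erythroid list, 0 of 10 for neutrophils and their precursors, 0 of 10 for monocytes and macrophages, 0 of 8 for the B lineage, 1 of 7 for T and NK cells, 3 of 10 for endothelium, 1 of 9 for stroma and bone, 0 of 9 for mast cells, basophils and eosinophils, and 2 of 8 for stem and progenitor cells. Endothelium shared the low side of the pattern, since 9 of its 10 tested markers were lowest on rHuEPO 1, against 22.1% of all genes. Their summed signal, relative to the 75th percentile, was 7.92 to 9.91 on controls and 7.24 to 11.1 after rHuEPO. That sum is weighted towards the brightest marker and is not a level of the whole list. Kdr, the receptor for VEGF, stood at -2.46 on rHuEPO 1 and -1.06 on rHuEPO 2, Tek was too dim to test, and Pecam1 ran the other way, at -0.70 and -2.30. Pecam1 was also high on the untreated array, at -0.48, and low on the PBS arrays, at -2.37 and -1.84. It was called higher on slide 1 than on slide 2 (limma adjusted p = 0.0248). Endothelium also makes Vwf, Selp, Thbs1, Mmrn1 and F2r, and its part in their values was not tested.

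The erythroid markers, whose lineage rHuEPO drives, did not share the members' extremes. Their summed signal was 2107 to 2411 on controls and 2094 to 2471 after rHuEPO, dominated by globin. The B lineage and stroma lists differed most among the controls, with PBS array 1 lowest in both, at centred medians of -1.40 and -0.86, against 0.21 for the members on that array. The part of these cells in the members' values was not tested.

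Genes outside the members with the most similar profile were found by Pearson's r over the 6 arrays with the median profile of 10 members (Pf4, Ppbp, Itga2b, Itgb3, Gp1bb, Gp5, Gp9, Gp6, Treml1 and Clec1b), among 3111 named genes with a range of at least 1 log2 unit. The 6 arrays share scaling and slides, so r is a description. The 6 most alike were Mrvi1 (r = 0.999), Slc6a3 (0.996), Cavin2 (0.996), Clu (0.994), Slc6a4 (0.992) and Lgalsl (0.985). Cavin2, a coat protein of caveolae, stood at 4.06 untreated, 4.46 and 4.24 in PBS, and 2.77, 5.06 and 4.22 after rHuEPO. Slc6a4, the serotonin transporter, stood at 0.93, 1.03 and 0.68 on the controls and -0.65, 1.60 and 0.70 after rHuEPO. Clu, clusterin, ran from 0.76 on rHuEPO 1 to 2.99 on rHuEPO 2. Each of the 6 had a limma adjusted p of 1.00 for rHuEPO against control, which their choice by likeness to uncalled members favoured.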

How the data were processed

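Cy3-labelled total RNA was read on 1-colour Agilent arrays, per the labels. Per the file headers, Feature Extraction 10.7.3.1 made the deposited intensity of each spot and subtracted background from it. The value table that the authors deposited is in log2 units. Set against the scanner values after scaling to the 75th percentile and centring of probes on their medians, its columns had slopes from 0.9988 to 1.0007, and its own column medians ran from -0.103 to 0.117.

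Each spot's log2 processed signal was set relative to its array's 75th percentile, taken over gene spots. Control and outlier spots were left out, no spot was saturated, spots of a probe were averaged, and 17 probes without a value on every array were dropped. A probe was tested when well above background on at least 3 arrays, and the brightest tested probe stood for a gene. Names came from accessions matched without versions to RefSeq (GRCm38.p6), for 64.8% of probes.

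Tests used limma 3.58.1 in R 4.3.3 (lmFit, eBayes, two-sided, Benjamini-Hochberg over all genes, threshold 0.05). The fit was also run on simulated independent arrays without a slide effect, a setting that differs from these data. The reported fit set 3 rHuEPO against 3 control arrays, as the series design does. Other fits had 3 groups, or arm and slide. The members and lists were chosen with earlier results of these data known. All members are given. Of each related list the 3 genes with the smallest p are named, of each marker list at most 3, and the 6 genes outside the members most like 10 of them. The related genes with both extremes, and Tpm4, Slc35d3, F11r, Pear1 and P2ry1 among them, were chosen after their values were seen. Alternatives were quantile and median scaling, normexp (offset 50; on median signals, since the files used here carry no mean signal), 2 filters on dim probes, averaged probes, a slide block, a replicate block, PBS alone as control, a trended robust prior, array weights, the deposited table, and leaving out each array. One gene's values are not reported here.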

Additional observations from a re-analysis of the deposited data

How the results depend on the processing

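No member was called under any of the 18 alternatives, with 522 member values in all and a smallest limma adjusted p of 0.2 (F2r, without a filter on dim probes). The sign of a member's difference differed from the reported one in 107 of the 522, none of them called, and 7 moved by more than 1 SD. With 1 array left out the members' median difference ranged from -0.4465 to 0.2696, and without rHuEPO array 3 or any single control it lay between -0.15 and -0.10. Over all genes, the 10 calls became 1 with normexp on median signals, 1 without a filter, 5 with a filter on all 6 arrays, 3 with PBS as the only control and 27 with array weights. Leaving out 1 array gave 1 to 6 calls (3 without the untreated array, 1 without PBS 1, 6 without PBS 2, 3 without rHuEPO 1, 1 without rHuEPO 2 and 1 without rHuEPO 3). The labels do not say that replicate numbers pair the samples, and deviations of same-numbered PBS and rHuEPO arrays correlated at -0.0711 and -0.159. The crossed pairs gave 0.159 and 0.0711, because the PBS arrays deviate from their own mean by equal and opposite amounts. These values rest on 1 PBS difference, leave out the untreated array and cannot decide on pairing. With the replicate block limma called 1 gene and the members' median was -0.19. The 3 calls of rHuEPO against PBS became 1 with normexp and 1 with the filter on all 6 arrays, and ranged from 1 to 3 with an array left out, being 1 without PBS 1. Untreated against PBS gave 0 in every setting run, 0 to 0 with an array left out. The 1570 slide calls became 0 with normexp and ranged from 0 to 2403 (1 without the untreated array, 2403 without PBS 1, 0 without rHuEPO 1, 3 without rHuEPO 2 and 4 without rHuEPO 3). The causes were not tested. Scaling moved the median of all genes to 0.0586 with median scaling and 0.0832 with normexp. Signal over background limits F2rl2 and P2ry12, and 3 arrays in an arm limit every difference.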
